A study of Mus musculus with 12 samples.

Results

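Apoe, Clu, Abca1, Abcg1, Lpl, Lrp1, Vldlr and Lrp8, 8 of the 55901 genes in the deposited table, were followed across 3 groups of mouse cortical neuron cultures. They are the genes of lipoprotein transport in this table that were picked by name as apolipoproteins, lipid exporters, a lipase and lipoprotein receptors, with fold changes of these libraries already known. Their levels and differences are therefore given as a description, without p-values, and the counts of calls among them support nothing. All 8 passed the filter on low values (a mean of at least 0.5 FPKM over the 12 libraries, where FPKM is the number of fragments on a gene scaled by its exon length and by a size factor of the library).

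The cultures were made from the cerebral cortex of newborn C57BL/6J mice, whose cells were freed with papain within 24 h of birth. All cultures, the controls included, received arabinosylcytosine on day 1, an inhibitor of DNA synthesis that limits dividing glia. Control cultures were left uninjured, Trauma cultures were scratched with a needle and collected 24 h later, and Trauma+TGF-β1 cultures were scratched and kept with 10 ng/mL of the cytokine TGF-β1 for 24 h. PolyA RNA of 4 libraries per group was sequenced, and nothing in the labels says whether replicates came from separate cultures or litters, so the p-values given for other genes measure the spread between these libraries alone. In what follows, the injury comparison sets Trauma against Control, the TGF-β1 comparison sets Trauma+TGF-β1 against Trauma, and the combined comparison sets Trauma+TGF-β1 against Control.

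Lipids travel between brain cells on small particles that astrocytes, and microglia when activated, build around apolipoprotein E and clusterin. ABC transporters in the cell membrane load these particles with cholesterol and phospholipid, lipoprotein lipase frees fatty acids from the triglycerides of lipoproteins, and neurons take particles up through a family of lipoprotein receptors. Of these receptors, those encoded by Vldlr and Lrp8 also receive Reelin, the secreted protein that guides the layering of cortical neurons.

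Among the 8 genes, the Apoe level in Trauma+TGF-β1 was below that in Trauma in every library (289 ± 14.2 against 436 ± 33.5 FPKM, mean ± SD, n = 4), while that of Abca1 was above it (15.4 ± 1.00 against 13.2 ± 0.975 FPKM). Clu and Abca1 had higher levels in Trauma than in Control, and both also had higher levels in Trauma+TGF-β1 than in Control. The level of Vldlr was lower in Trauma than in either other group in every library. Abcg1 and Lrp1 had overlapping levels in all 3 groups.

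In the table of RefSeq promoters used here (GRCm38.p6), 5 of the 8 genes were matched (Apoe, Abca1, Lrp1, Vldlr and Lrp8), and Clu, Abcg1 and Lpl were not. In the deposited table's coordinates, whose gene starts match this build for 4 of the 5 (that of Lrp8 is 1016 bases away), Clu lies at chr14:65968483-65981547, Abcg1 at chr17:31057675-31117988 and Lpl at chr8:68880491-68907448, and the receptor genes at chr10:127538161-127621148 (Lrp1), chr19:27216484-27254231 (Vldlr) and chr4:107801869-107876840 (Lrp8). Apoe spans chr7:19696109-19699188 and Abca1 chr4:53030787-53159895. The 250 bases before the start are printed for the 3 genes whose level in Trauma+TGF-β1 was called different from that in Trauma. They are Apoe (chr7:19699189-19699438, minus strand), Abca1 (chr4:53159896-53160145, minus strand) and Vldlr (chr19:27216234-27216483, plus strand). They read 5′ to 3′, and capitals mark matches to any of 7 motifs searched on both strands.
Apoe: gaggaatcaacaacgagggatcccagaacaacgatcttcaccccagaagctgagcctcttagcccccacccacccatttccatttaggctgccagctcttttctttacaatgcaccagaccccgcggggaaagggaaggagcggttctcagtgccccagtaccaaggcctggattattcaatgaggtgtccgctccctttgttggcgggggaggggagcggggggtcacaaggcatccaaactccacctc
Abca1: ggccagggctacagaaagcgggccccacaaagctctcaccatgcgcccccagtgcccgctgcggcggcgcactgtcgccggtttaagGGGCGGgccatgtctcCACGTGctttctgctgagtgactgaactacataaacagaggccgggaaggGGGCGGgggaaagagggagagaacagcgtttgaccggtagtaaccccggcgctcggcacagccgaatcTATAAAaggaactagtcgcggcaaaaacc
Vldlr: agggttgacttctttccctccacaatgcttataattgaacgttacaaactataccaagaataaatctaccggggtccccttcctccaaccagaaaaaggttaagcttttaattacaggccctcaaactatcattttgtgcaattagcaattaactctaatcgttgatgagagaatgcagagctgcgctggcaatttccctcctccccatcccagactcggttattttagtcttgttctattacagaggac
The motifs were the AP-1 motif TGANTCA, the SMAD palindrome GTCTAGAC, the CAGA box CAGACA, the LXR response element DR4, the SP1 motif GGGCGG, the TATA box TATAAA and the E-box CACGTG. Of 32851 promoters of the same length, these motifs were held by 6.75%, 0.167%, 17.1%, 0.0152%, 32.7%, 12.4% and 6.02%, in that order. The LXR response element was searched only as its exact consensus pair of half-sites, which 5 of these promoters held. So strict a search cannot decide whether a window holds an LXR element that departs from this consensus, and nothing is read from its absence. The Abca1 promoter held 4 matches, with GGGCGG beginning at -163 and at -97, CACGTG at -147 and TATAAA at -29 from the start. None of the 7 motifs was found in these windows of Apoe and Vldlr. The Apoe window had a GC content of 57.2%, that of Abca1 61.6% and that of Vldlr 41.6%.

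Each library had 15052486 to 17381671 reads on genes, and the gene with fewest of them, Abcg1, was covered by 355 to 512 reads in a library, while Apoe was covered by 8161 to 18117. Control replicate 1 stood apart from the other libraries, with a second principal component of 59 where the other 11 libraries lay between -21.9 and 8.70. Its share of mitochondrial reads was 2.97%, against 2.12% to 2.36% in the other Control libraries, 2.17% to 2.30% in Trauma and 2.69% to 3.23% with TGF-β1. Of genes known to respond to TGF-β, Smad7 was not higher in Trauma+TGF-β1 than in Trauma (log2 fold change -0.50 ± 0.15, SE, adjusted p = 0.0538), and Skil showed a log2 fold change of 0.09 ± 0.06 (adjusted p = 0.312). Acta2 and Thbs1, reported in other lists below, were called higher in this comparison in all 25 alternative settings. Their log2 fold changes there were 0.55 to 0.72 and 0.45 to 0.64. These few genes do not measure the response of the cultures to TGF-β1. Adjusted p-values here come from limma with Benjamini-Hochberg adjustment over 15016 tested genes, and genes at an adjusted p of at most 0.05 are called.

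**Figure D1:**
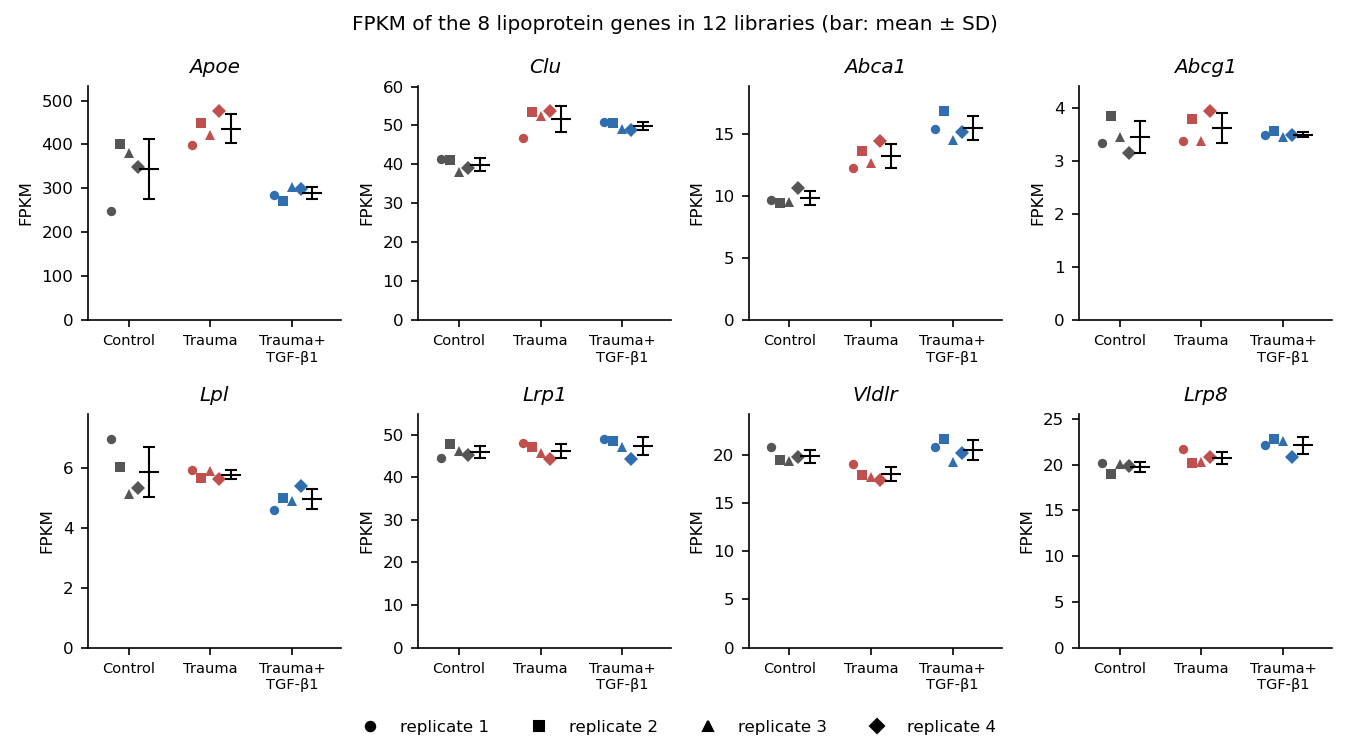
FPKM of the 8 genes in the 12 libraries, with 1 symbol per replicate number, a mean ± SD bar beside each group of 4, and y axes that start at 0. The 4 Trauma+TGF-β1 libraries lie below the 4 Trauma libraries for Apoe and above them for Abca1 and Vldlr, and Control replicate 1 is the lowest of all libraries for Apoe, at 248 FPKM.

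Apoe, the main apolipoprotein made in the brain, had the highest level of the 8 genes in each group. It was measured at 248, 401, 381 and 348 FPKM in Control replicates 1 to 4, at 398, 448, 423 and 476 FPKM in Trauma, and at 285, 271, 302 and 298 FPKM in Trauma+TGF-β1. The Trauma libraries lay above all Trauma+TGF-β1 libraries, while the Control libraries spanned a range that reached both other groups. Control replicate 1 lay below every Trauma+TGF-β1 library, and the other Control libraries lay above them. By its mean level, Apoe ranked 53 among the tested genes in Control, 40 in Trauma and 57 with TGF-β1. In bulk RNA, fewer cells of the type that makes a transcript and less transcript per cell cannot be told apart.

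On the log2(FPKM + 0.1) scale, Apoe differed by -0.59 ± 0.12 (SE) between Trauma+TGF-β1 and Trauma, a ratio of mean levels of 0.663. The difference between Trauma and Control was 0.37 ± 0.12 and was not called. It was 0.22 and not called without Control replicate 1, and was called with voom, which is limma on the whole reads recovered from the FPKM values with weights for depth (0.36), and with a correction for GC content (0.33). Between Trauma+TGF-β1 and Control the log2 difference was -0.22 ± 0.12, not called with all libraries, and -0.37 and called without Control replicate 1. In that comparison a single library therefore set the call, while the lower Apoe level in Trauma+TGF-β1 than in Trauma was called in all 25 alternative settings (other filters, pseudocounts, scalings and fits, corrections, and each library left out), at log2 differences from -0.63 to -0.41. The value nearest to 0 came from a loess correction of each library for GC content. The Apoe transcript has a GC content of 59.5%, above the median of 49.6% over tested genes, and the log2 fold changes of Trauma+TGF-β1 against Trauma fell with GC content across genes (Spearman's rho -0.465 over 14699 genes, which share the same libraries and are not independent). The mitochondrial share was also higher in the Trauma+TGF-β1 libraries and in Control replicate 1, where Apoe was low, and its part in the Apoe difference was not tested.

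Clu encodes clusterin, also called apolipoprotein J, a secreted chaperone of lipid particles. It lay at 41.4, 41.2, 38.0 and 39.1 FPKM in Control, at 46.8, 53.6, 52.5 and 53.7 FPKM in Trauma, and at 50.9, 50.5, 49.2 and 48.8 FPKM in Trauma+TGF-β1. Every library of both injured groups was above every Control library, and the injured groups overlapped each other. The log2 difference was 0.38 ± 0.05 (SE) for Trauma against Control and 0.33 ± 0.05 for Trauma+TGF-β1 against Control, both called in all 25 alternatives. Between Trauma+TGF-β1 and Trauma it was -0.05 ± 0.05. The level of Apoe was thus 8.45 ± 0.342 times that of Clu in Trauma and 5.81 ± 0.387 times in Trauma+TGF-β1 within a library (SD, n = 4), and these libraries did not overlap.

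Abca1, the transporter that loads cholesterol and phospholipid onto lipid-poor apolipoproteins, was measured at 9.66, 9.44, 9.46 and 10.6 FPKM in Control. Its level was 12.2, 13.6, 12.7 and 14.4 FPKM in Trauma and 15.4, 16.8, 14.5 and 15.1 FPKM in Trauma+TGF-β1. The 3 groups did not overlap, although the lowest Trauma+TGF-β1 library (14.45 FPKM) and the highest Trauma library (14.4 FPKM) were almost level. Log2 differences were 0.44 ± 0.06 (SE) in the injury comparison, 0.23 ± 0.06 in the TGF-β1 comparison and 0.66 ± 0.06 in the combined comparison. Both comparisons with Control were called in all 25 alternatives. The difference between Trauma+TGF-β1 and Trauma was called in 14 of the 25. It was not called after a correction for GC content (0.19) or gene length (0.15), without a filter on low values (0.23), or when any of Trauma replicates 1, 2 and 3 or Trauma+TGF-β1 replicates 1, 2 and 4 was left out (0.19 to 0.24).

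Abcg1, which passes cholesterol to particles that already carry lipid, had the lowest level of the 8 genes in each group. Its libraries lay between 3.16 and 3.85 FPKM in Control, 3.37 and 3.94 in Trauma, and 3.45 and 3.57 in Trauma+TGF-β1. The 3 groups overlapped, and its log2 differences of 0.08, -0.04 and 0.03 (each ± 0.07, SE) in the injury, TGF-β1 and combined comparisons were not called in any of the 25 alternatives. Within a library, the level of Abca1 was 2.45 to 3.37 times that of Abcg1 in Control, 3.58 to 3.75 times in Trauma and 4.19 to 4.72 times with TGF-β1. These 3 ranges did not overlap, so that both exporters stood in a different proportion in each group. The gene pairs for such ratios were chosen after the values were seen.

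**Figure D2:**
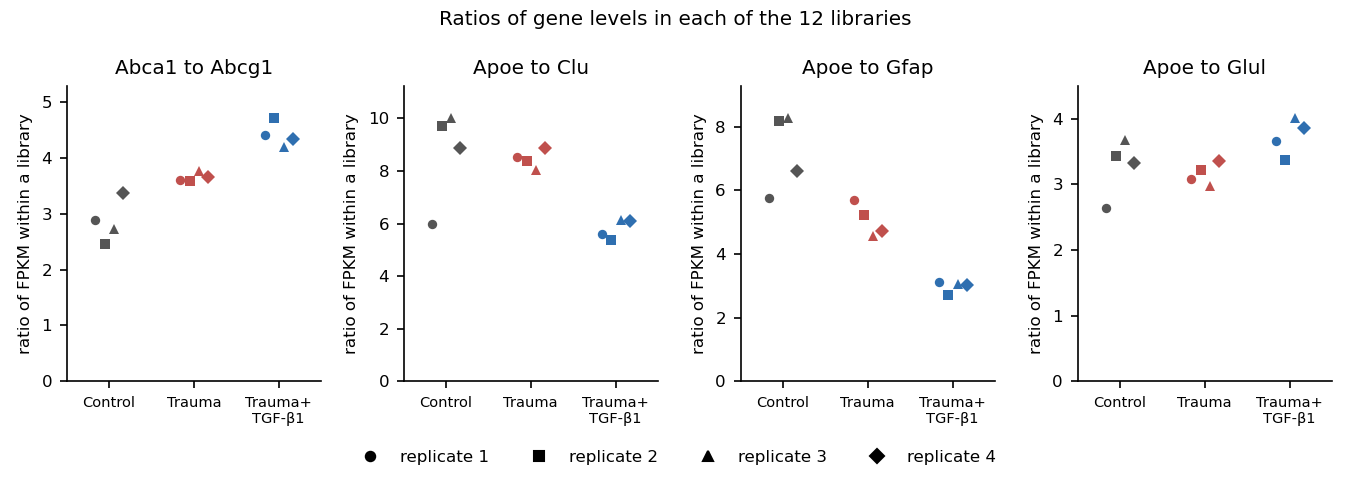
Ratios of FPKM between gene pairs within each of the 12 libraries, with 1 symbol per replicate number and y axes that start at 0. The ratio of Abca1 to Abcg1 lies in 3 separate ranges, from 2.45 to 3.37 in Control up to 4.19 to 4.72 in Trauma+TGF-β1. The ratio of Apoe to Gfap goes the other way, from a mean of 7.21 in Control to 2.98 in Trauma+TGF-β1.

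Lpl, the lipase of triglyceride-rich lipoproteins, was measured at 6.97, 6.02, 5.14 and 5.31 FPKM in Control, at 5.94, 5.65, 5.89 and 5.63 FPKM in Trauma, and at 4.61, 4.99, 4.89 and 5.40 FPKM in Trauma+TGF-β1. With TGF-β1 the level was below that of Trauma in every library, and Control overlapped both. The log2 difference between Trauma+TGF-β1 and Trauma was -0.21 ± 0.09 (SE) and was not called, nor was that between Trauma+TGF-β1 and Control (-0.21 ± 0.09) or between Trauma and Control (-0.0008 ± 0.09). With a correction for gene length both differences from Trauma+TGF-β1 were larger and called (-0.29 against Trauma and -0.30 against Control). Without Control replicate 1, the highest Control library, the difference from Control was -0.13, and that from Trauma kept its size but passed the threshold. Gpihbp1, which anchors this lipase on capillary walls, was listed at 0 in all 12 libraries.

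Lrp1, the large endocytic receptor for Apoe-bearing particles, was the most abundant of the 3 receptors per length. Its libraries lay between 44.4 and 47.8 FPKM in Control, 44.3 and 48.1 in Trauma, and 44.3 and 49.0 in Trauma+TGF-β1. The groups overlapped throughout, with log2 differences of 0.02, 0.03 and 0.05 (each ± 0.04, SE) in the injury, TGF-β1 and combined comparisons. These directions depended on the scaling, since the difference between Trauma+TGF-β1 and Trauma was 0.19 with a correction for GC content and -0.10 with one for gene length. In Control the level of Lrp1 was above that of Clu in every library, while in both injured groups the levels of these genes overlapped.

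Vldlr, a receptor for Apoe-bearing particles and for Reelin, was measured at 20.8, 19.5, 19.4 and 19.7 FPKM in Control, at 19.1, 17.9, 17.7 and 17.4 FPKM in Trauma, and at 20.8, 21.7, 19.3 and 20.2 FPKM in Trauma+TGF-β1. The Trauma libraries were the lowest of the 3 groups without overlap, and Control and Trauma+TGF-β1 overlapped. The log2 difference was -0.13 ± 0.04 (SE) for Trauma against Control, which was not called, and 0.19 ± 0.04 for Trauma+TGF-β1 against Trauma, which was. The call was lost with a correction for GC content (0.10) or gene length (0.11), and without Trauma replicate 2 (0.18), Trauma replicate 4 (0.17) or Trauma+TGF-β1 replicate 2 (0.16).

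Lrp8 encodes the other Reelin receptor, ApoER2. Its level was 20.1, 19.0, 20.1 and 19.8 FPKM in Control, 21.7, 20.2, 20.3 and 20.8 FPKM in Trauma, and 22.1, 22.8, 22.6 and 20.9 FPKM in Trauma+TGF-β1. All libraries of both injured groups lay above Control, in Trauma by a margin of less than 0.05 FPKM between the nearest libraries. The log2 differences were 0.08 ± 0.04 (SE), 0.09 ± 0.04 and 0.17 ± 0.04 in the injury, TGF-β1 and combined comparisons, of which only the last was called. That call was lost with a correction for GC content (0.10) or gene length (0.07). Vldlr and Lrp8 were almost level in Control (a ratio of Vldlr to Lrp8 of 0.964 to 1.03), whereas every Trauma library held less Vldlr than Lrp8 (0.838 to 0.886), as did every Trauma+TGF-β1 library (0.854 to 0.970). Antisense transcripts that overlap Lrp8 (Lrp8os1, Lrp8os2 and Lrp8os3) had at most 31 reads in a library.

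**Figure D3:**
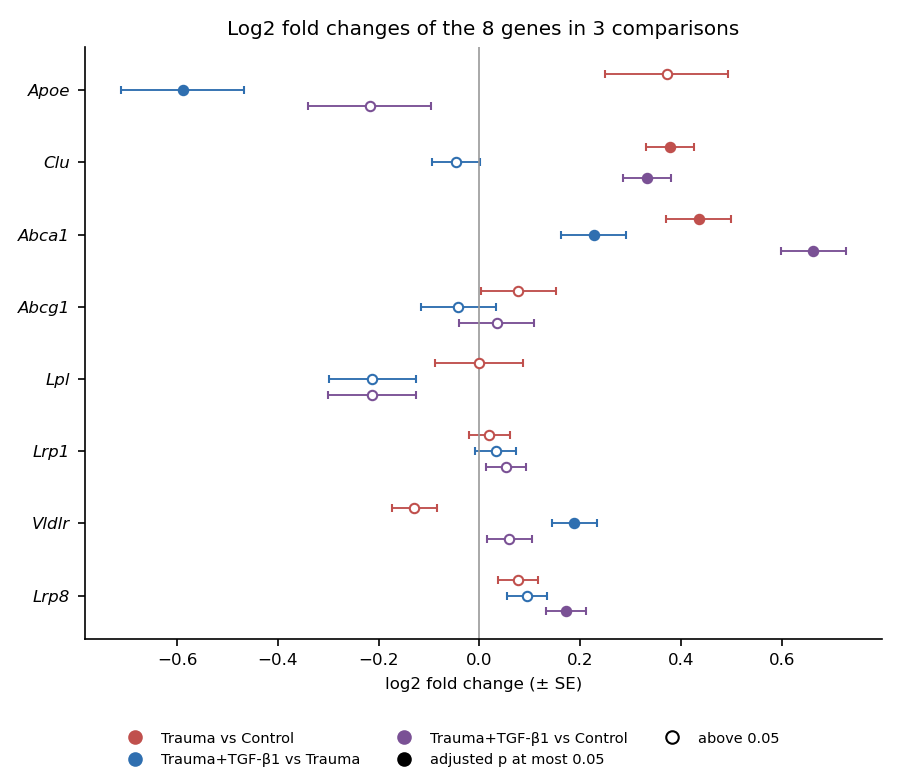
Log2 fold changes (± SE) of the 8 genes in the injury, TGF-β1 and combined comparisons, with filled circles for an adjusted p of at most 0.05. Apoe lies at 0.37, -0.59 and -0.22, Clu at 0.38, -0.05 and 0.33, and Abca1 at 0.44, 0.23 and 0.66.

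In the injury comparison, 2 of the 8 genes were called (Clu and Abca1), where 5.82% of tested genes were, and 4 had libraries that did not overlap, where 12.9% of tested genes had. In the TGF-β1 comparison 3 were called (Apoe, Abca1 and Vldlr), against 12.3% of tested genes, and 4 did not overlap, against 22.2%. In the combined comparison 3 were called (Clu, Abca1 and Lrp8), against 16.3%, and 3 did not overlap, against 18.5%. The comparisons share libraries, and the genes were picked with these fold changes known, so nothing is read from these counts. The median log2 fold change of the 8 genes was 0.08, -0.005 and 0.06 in the 3 comparisons, beside -0.002, 0.005 and 0.003 over all tested genes. Leaving out Control replicate 1 moved the differences from Control of Clu (0.40 and 0.35), Abca1 (0.43 and 0.66) and Lrp8 in Trauma+TGF-β1 (0.18) by less than 0.02.

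By level the genes kept nearly the same order in each group. In Control it was Apoe, Lrp1, Clu, Vldlr, Lrp8, Abca1, Lpl and Abcg1, with Vldlr and Lrp8 the only neighbours whose libraries overlapped. In Trauma the order was Apoe, Clu, Lrp1, Lrp8, Vldlr, Abca1, Lpl and Abcg1, with Clu and Lrp1 overlapping. The order in Trauma+TGF-β1 was that of Trauma, with Clu and Lrp1, and Lrp8 and Vldlr, overlapping. The coefficient of variation between Control libraries was 19.7% for Apoe and 14.2% for Lpl, and at most 8.53% for the other 6 genes. In Trauma+TGF-β1 it was at most 6.63% for any of the 8.

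Since astrocytes are the main source of Apoe and Clu in brain and also make Abca1, astrocyte markers were set beside them. Over all tested genes, 5.82%, 12.3% and 16.3% were called in the injury, TGF-β1 and combined comparisons. These shares stand beside all counts of marker genes here and below. The marker lists were chosen with earlier results of these data known, so nothing is read from the counts. All 13 astrocyte markers were above 0 in every library, and 12 could be tested. In Trauma, 10 of the 12 rose relative to Control and none fell, among them Gfap, the intermediate filament of reactive astrocytes (log2 fold change 0.87 ± 0.10, SE, adjusted p = 0.000331), the water channel gene Aqp4 (0.63 ± 0.07, adjusted p = 0.000402) and the glutamate transporter gene Slc1a3 (0.36 ± 0.04, adjusted p = 0.000624). Of these calls, those of Sox9, Fgfr3 and Slc1a2 held in 19, 14 and 12 of the 25 alternatives. The summed level of the 13 astrocyte markers was 389 to 437 FPKM in Control and 493 to 570 FPKM in Trauma. The higher levels of Clu and Abca1 in Trauma thus stood beside higher astrocyte markers, whose part in them was not tested. The 13 neuron markers summed to less, at 1327 to 1413 FPKM in Trauma and 1262 to 1304 FPKM in Trauma+TGF-β1 against 1472 to 1531 FPKM in Control. Most of this drop lay in Tubb3 (means of 960, 842 and 739 FPKM in Control, Trauma and Trauma+TGF-β1). As single genes the neuron markers were split. Relative to Control, 2 were called higher and 2 lower in Trauma, and 4 higher and 5 lower in Trauma+TGF-β1. In Trauma, the higher call of Nefl held in 5 of the 25 alternatives. In Trauma+TGF-β1, the higher call of Map2 and the lower call of Slc17a7 held in 13 each, and the lower call of Bcl11b in 17. The other calls held in 18 to 25.

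In the TGF-β1 comparison the astrocyte markers did not move together, since 1 of the 12 rose and 4 fell. Aqp4 rose (0.32 ± 0.07, adjusted p = 0.0178), a call lost with a correction for GC content (0.20) and without Trauma+TGF-β1 replicate 2 (0.26), whereas Glul, the glutamine synthetase of astrocytes, fell by 0.83 on the log2 scale (SE 0.06, adjusted p = 2.6e-05). Aldh1l1, a folate enzyme, fell by 0.50 (SE 0.07, adjusted p = 0.0043), and Aldoc and the connexin gene Gja1 also fell, with Gja1 no longer called without any of Trauma replicates 1 and 4 and Trauma+TGF-β1 replicates 2 and 4 (-0.27 to -0.23). Apoe was on the side of Glul and Aldh1l1, and Abca1 on the side of Aqp4. The summed astrocyte level was 463 to 495 FPKM in Trauma+TGF-β1, so that its range overlapped that of Trauma by a narrow margin. Within a library, the ratio of Apoe to Gfap was 5.76 to 8.29 in Control, 4.57 to 5.70 in Trauma and 2.73 to 3.11 with TGF-β1, while the ratio of Apoe to Glul was higher in Trauma+TGF-β1 (3.37 to 4.01) than in Trauma (2.98 to 3.35). Between Trauma and Trauma+TGF-β1 the Apoe level was thus lower by a smaller proportion than that of Glul, while Gfap was not lower (log2 fold change 0.17, not called).

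**Figure D4:**
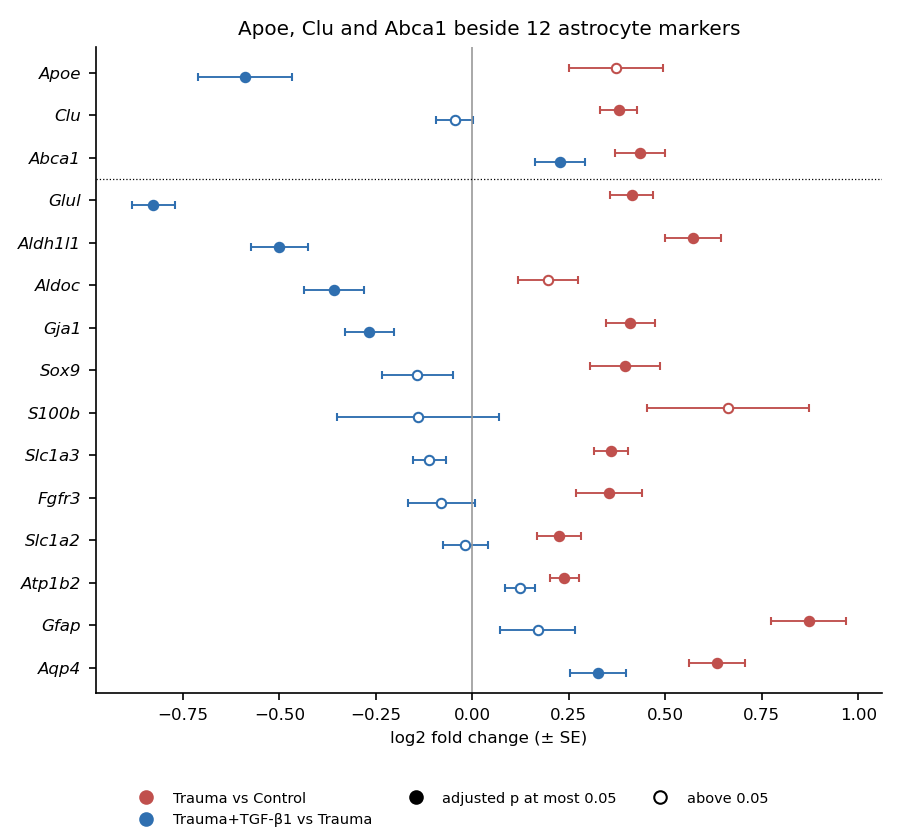
Log2 fold changes (± SE) of Apoe, Clu and Abca1, above the dotted line, and of the 12 tested astrocyte markers, ordered by their value for Trauma+TGF-β1 against Trauma, with filled circles for an adjusted p of at most 0.05. In Trauma against Control all 12 markers lie above 0. In Trauma+TGF-β1 against Trauma they run from Glul at -0.83 to Aqp4 at 0.32, and Apoe lies at -0.59.

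Of the 13 microglial markers, 7 could be tested, and 4 rose in Trauma relative to Control, namely C1qa, C1qb, C1qc and Tyrobp, which encode parts of the first complement component and a signalling adaptor. C1qb rose by the most of these (log2 fold change 0.70 ± 0.15, SE, adjusted p = 0.0171), a call lost without Trauma replicate 2 (0.68). C1qa, C1qc and Tyrobp were called in 15, 10 and 8 of the 25 alternatives, and C1qc was the only one that fell between Trauma and Trauma+TGF-β1 (-0.38 ± 0.12, adjusted p = 0.0499), in 6 of the 25. The summed level of the 13 was 29.5 to 34.7 FPKM in Control, 41.8 to 52.5 in Trauma and 35.1 to 40.3 with TGF-β1. Its mean was highest in Trauma, and so were the means of Apoe and of the astrocyte and oligodendrocyte lineage sums. Most of the microglial sum came from C1qa, C1qb, C1qc and Tyrobp. Of the markers below the filter, Tmem119, Trem2, Ptprc and Itgam had their highest means with TGF-β1, and Aif1 and P2ry12 had theirs in Trauma. Of defining microglial genes, P2ry12 and Tmem119 had at most 16 reads in a library. Csf1r had 44 to 118 reads and Cx3cr1 82 to 138, and both were tested but not called in any comparison. Of the 11 markers of the oligodendrocyte lineage, 3 of 8 tested rose in Trauma relative to Control, and their sum was 55.1 to 61.2 FPKM in Control, 70.9 to 78.6 in Trauma and 67.4 to 74.6 with TGF-β1. None of the 6 endothelial markers passed the filter, and their sum stayed at or under 0.580 FPKM. The 8 fibroblast and mural markers summed to 4.18 to 4.95 FPKM in Control, 6.98 to 9.06 in Trauma and 10.2 to 12.6 with TGF-β1, mostly through the smooth muscle actin gene Acta2 (means of 1.38, 4.43 and 6.94 FPKM). The part of these cells in the levels of the 8 genes was not tested.

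The genes whose library-by-library pattern was most like that of Apoe were Tmed9, Wnt7a, Sox2, Ap1s1 and Kcnip3. Likeness was the root mean square difference of the log2 deviations from the Control mean over the 12 libraries, and was 0.08 for Tmed9 and 0.13 for Kcnip3. All 5 were lower in Trauma+TGF-β1 than in Trauma, by log2 values from -0.53 for Sox2 to -0.47 for Ap1s1. For Abca1 the nearest genes were Cpt1a, Lxn, Ednrb, Dkk3 and Ctnna1 (0.09 to 0.10), all called higher in both comparisons with Control. For Lpl they were Kcnj11, Psma6, Cdc42ep2, Tma7 and Fgd3 (0.08 to 0.10), none of which was called in any comparison. All these genes were picked by their likeness over the same libraries. The directions they share with Apoe, Abca1 or Lpl therefore follow from the choice, and nothing is read from them.

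A further 113 genes of 8 lists cover the pathway around these 8, and 83 of them could be tested. Of the 83, 5 rose and 7 fell in Trauma relative to Control, 2 rose and 7 fell in Trauma+TGF-β1 relative to Trauma, and 11 rose and 12 fell in Trauma+TGF-β1 relative to Control. Calls were thus 14.5%, 10.8% and 27.7% of the 83, where 5.82%, 12.3% and 16.3% of all tested genes were called. The same shares of all tested genes stand beside the counts of single lists below. The lists were chosen with earlier results of these data known, so nothing is read from these counts. The median log2 fold changes of the 83 were 0.006, -0.005 and -0.02, close to those over all tested genes.

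Among other apolipoproteins and particle proteins, 6 of 15 could be tested, and 3 of the 6 rose in Trauma relative to Control while none fell. Apod, a lipocalin, rose from 0.728 ± 0.172 to 1.45 ± 0.292 FPKM (SD, n = 4, log2 fold change 0.92 ± 0.20, SE, adjusted p = 0.0198), a call lost without Control replicate 3 or Trauma replicate 2. Lcat, which esterifies the cholesterol of particles, rose by 0.62 ± 0.16 (adjusted p = 0.0438) and Pltp, the phospholipid transfer protein, by 0.39 ± 0.11 (adjusted p = 0.0498). The calls of Lcat and Pltp were near the threshold and held in 10 and 3 of the 25 alternatives. With TGF-β1 against Trauma, limma and voom each called 0 of the 6, and 2 had an unadjusted p under 0.05. Apoa4 and Apoc2 were listed at 0 in all libraries.

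Among other ABC lipid transporters, 8 of 12 could be tested, and 2 fell in Trauma relative to Control, where Abca1 was higher. Abca2 fell by 0.16 on the log2 scale (SE 0.04, adjusted p = 0.0392) and Abca7 by 0.48 (SE 0.13, adjusted p = 0.0478), in 14 and 12 of the 25 alternatives. In the combined comparison, Abca8b rose from 0.909 ± 0.0855 to 1.56 ± 0.242 FPKM (SD, n = 4, log2 fold change 0.72 ± 0.14, SE, adjusted p = 0.00624), while Abca7 (-0.45 ± 0.13, adjusted p = 0.0329) and Abcg4, a close relative of Abcg1 (-0.17 ± 0.05, adjusted p = 0.0411), fell in 18 and 11 of the 25 alternatives. In the TGF-β1 comparison limma and voom each called 0 of the 8, and 3 had an unadjusted p under 0.05.

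Among other lipoprotein receptors, sortilins and scavenger receptors, 17 of 19 could be tested. Sorl1, a sorting receptor that also binds Apoe, rose by 0.42 ± 0.07 in Trauma (adjusted p = 0.00364) and by 0.57 ± 0.07 in Trauma+TGF-β1 relative to Control (adjusted p = 0.000327). Sorcs3 rose by 0.42 ± 0.10 in Trauma (adjusted p = 0.0303), a call lost when any of Control replicates 1 and 3 or Trauma replicates 1, 2 and 4 was left out. Lrp5, a Wnt co-receptor, rose in Trauma+TGF-β1 relative to Control (0.75 ± 0.17, adjusted p = 0.0125), and its relative Lrp6 was the only gene of this list called between Trauma+TGF-β1 and Trauma (0.29 ± 0.07, adjusted p = 0.0197), a call lost without Trauma replicate 4 or Trauma+TGF-β1 replicate 2 or 4, and with the corrections for GC content or gene length. Together, 4 of the 17 (23.5%) were called in Trauma against Control, where 5.82% of tested genes were. In Trauma+TGF-β1 against Control 9 of the 17 (52.9%) were called, beside 16.3% of tested genes.

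Of the receptors' helper proteins 6 of 8 could be tested, and of the Reelin pathway all 13. Between Trauma and Control limma called 0 of both, where voom called 1 and 0, and 2 of each had an unadjusted p under 0.05. Lrpap1, the chaperone of the receptor family, lay at 22.9 ± 0.841, 23.2 ± 0.679 and 23.1 ± 0.761 FPKM in Control, Trauma and Trauma+TGF-β1 (SD, n = 4). Reln, which encodes Reelin, lay at 9.41 ± 0.176, 8.76 ± 0.469 and 8.88 ± 0.521 FPKM, and Dab1, its intracellular adaptor, at 23.4 ± 2.27, 23.0 ± 0.975 and 24.7 ± 0.964 FPKM, neither called in any comparison. In Trauma+TGF-β1 relative to Trauma, 1 gene of the Reelin pathway rose and 3 fell. Thbs1, a thrombospondin that binds both Reelin receptors, rose from 2.52 ± 0.382 to 3.78 ± 0.218 FPKM (SD, n = 4, log2 fold change 0.58 ± 0.11, SE, adjusted p = 0.00901). Cdk5 and Src, kinases of the pathway, fell by 0.21 (SE 0.05, adjusted p = 0.0202) and 0.26 (SE 0.07, adjusted p = 0.0382), calls that held in 16 and 12 of the 25 alternatives and were lost with a correction for GC content or gene length. Leaving out Trauma replicate 2 or 4 or Trauma+TGF-β1 replicate 2 or 4 also ended both calls, and leaving out Trauma or Trauma+TGF-β1 replicate 1 ended that of Src. Snx17, which recycles these receptors, fell by 0.20 (SE 0.05, adjusted p = 0.0188), a call also lost with these corrections and without Trauma replicate 2 or Trauma+TGF-β1 replicate 4. Relative to Control, Thbs1 (0.77 ± 0.11, adjusted p = 0.000814) and the endocytic adaptor gene Dab2 (0.77 ± 0.20, adjusted p = 0.0239) rose in Trauma+TGF-β1, and Cdk5 fell (-0.36 ± 0.05, adjusted p = 0.000808). The Dab2 call held in 18 of the 25 alternatives and was lost without Control replicate 2 (0.73) or 3 (0.66) or Trauma+TGF-β1 replicate 1 (0.63) or 4 (0.77).

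**Figure D5:**
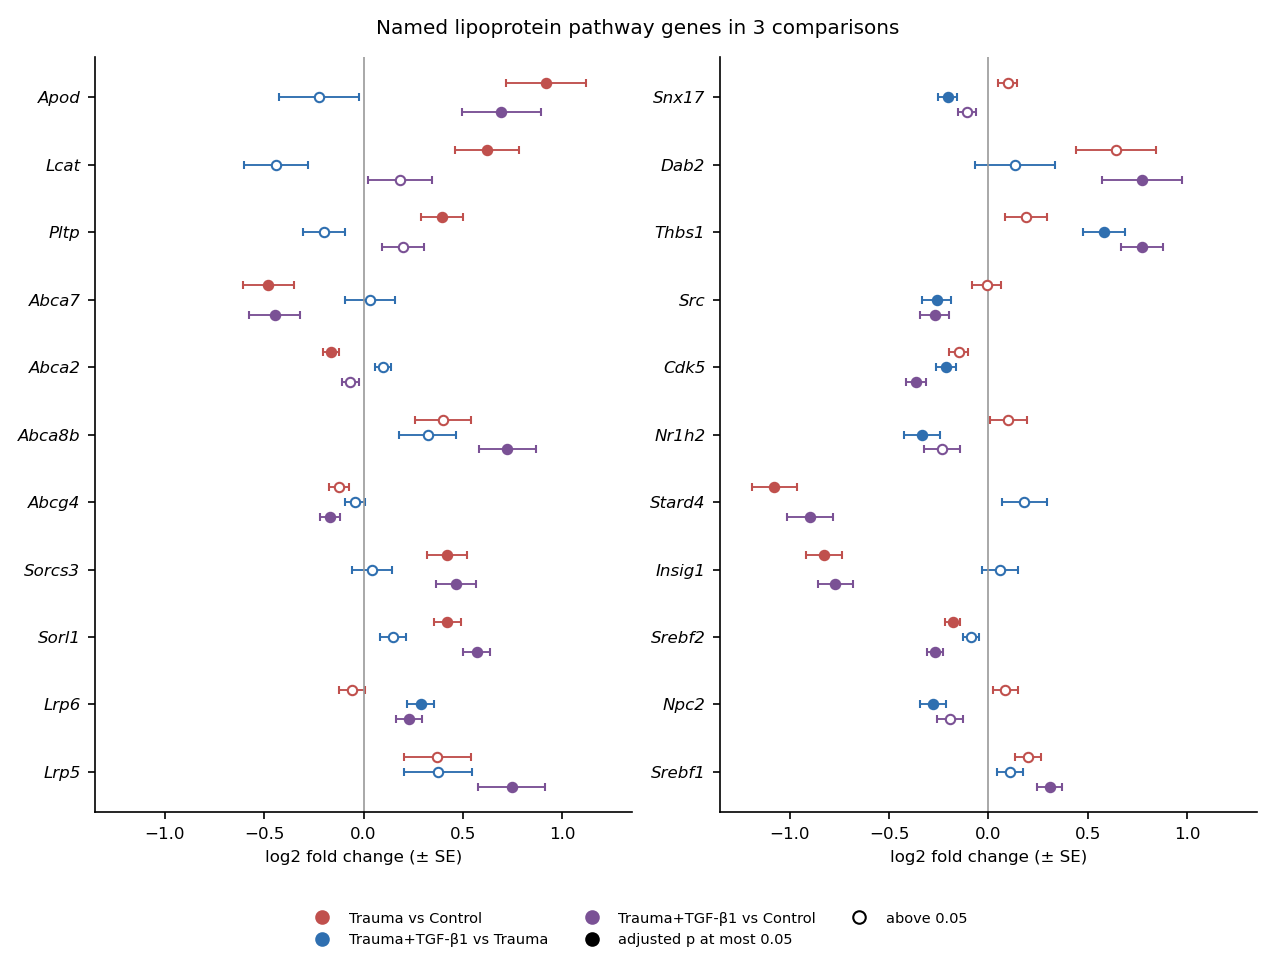
Log2 fold changes (± SE) of 22 named pathway genes outside the 8 in the 3 comparisons, with filled circles for an adjusted p of at most 0.05. Stard4 and Insig1 lie lowest in Trauma against Control, at -1.08 and -0.83, and Apod highest, at 0.92.

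Liver X receptors are the nuclear receptors that switch on Abca1, Abcg1 and Apoe when oxysterols bind them. Of their list, 10 of 14 genes could be tested, and 2 were called, both lower in Trauma+TGF-β1 than in Trauma. Against Control, limma called 0 in either injured group, where voom called 1 in each and 2 in each had an unadjusted p under 0.05. Nr1h2 (LXRβ) fell from 11.0 ± 0.270 to 8.72 ± 0.565 FPKM (SD, n = 4, log2 fold change -0.33 ± 0.09, SE, adjusted p = 0.0351). The Nr1h2 call held in 13 of the 25 alternatives. It was lost with a correction for GC content (-0.14) or gene length (-0.30), with no filter on low values, and without 7 of the 12 libraries in turn. Nr1h3 (LXRα) lay under the filter, at 0.244 ± 0.0415 FPKM in Control, 0.506 ± 0.176 in Trauma and 0.460 ± 0.0830 with TGF-β1.

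Of 17 tested genes for sterol handling inside the cell, 3 fell in Trauma relative to Control and none rose. Stard4, a cholesterol carrier of the cytosol, fell by 1.08 on the log2 scale (SE 0.11, adjusted p = 0.000222), Insig1, a sensor that holds back sterol synthesis, by 0.83 (SE 0.09, adjusted p = 0.000264), and Srebf2, the transcription factor of sterol synthesis, by 0.18 (SE 0.04, adjusted p = 0.018). The Srebf2 call was lost without any of Control replicates 3 and 4 and Trauma replicates 3 and 4. Stard4 and Insig1 were also lower than in Control with TGF-β1 (-0.90 ± 0.11 and -0.77 ± 0.09). Srebf2 was lower too, with every Trauma+TGF-β1 library below every Control library (means of 51.1 and 62.1 FPKM). Srebf1, the transcription factor of fatty acid synthesis, rose in that comparison (0.31 ± 0.06, adjusted p = 0.00814). The higher Abca1 level in both injured groups thus stood beside lower levels of Stard4 and Insig1, and whether these are linked was not tested. In the TGF-β1 comparison, Npc2, a lysosomal cholesterol carrier, was the only gene of this list that was called, and it fell by 0.28 (SE 0.06, adjusted p = 0.0203), a call lost without Trauma replicate 4 or Trauma+TGF-β1 replicate 2 or 4. Of the other lipases and cofactors of Lpl, 6 of 13 could be tested, and limma and voom called 0 of them in each comparison, with 1, 0 and 2 at an unadjusted p under 0.05 in the injury, TGF-β1 and combined comparisons.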

How the data were processed

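RNA of 12 cortical neuron libraries was sequenced by the authors (paired-end reads of 150 bp, Illumina NovaSeq), aligned with HISAT2 2.0.5 to mm10, and counted per gene with featureCounts. The methods speak of 6 samples. The deposited values are FPKM, which the authors calculated from mapped reads and gene length, and the deposited table also gives each gene length in base pairs (other).

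FPKM multiplied by length were whole multiples of 1 step in each library for 100% of genes (tolerance 0.05), which gave the reads. The deposited FPKM already carried a scaling between libraries, since their median ratio to the geometric mean over genes above 0 in all libraries was 1.01 in each library, and how the authors made it is not given in the sources used here. Median-of-ratios factors over the genes that passed the filter (0.999 to 1.01) were divided out, 0.1 FPKM was added before taking log2, and limma 3.58.1 (R 4.3.3) was run on the 15016 genes whose mean was at least 0.5 FPKM, with 1 model of 3 groups of 4 and moderated variances that follow the mean level (eBayes, trend). P-values were adjusted by Benjamini-Hochberg separately in each comparison, and genes at 0.05 or below were called. The authors' count test (DESeq2) was not run. Voom on the recovered reads called 1152 genes for Trauma against Control, 2554 for Trauma+TGF-β1 against Trauma and 2919 for Trauma+TGF-β1 against Control. The limma procedure was also run on simulated counts with the same extra spread for every gene and no trend with GC content or gene length. These settings differ from the libraries here, so nothing is read from that run.

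The 8 genes, the 8 pathway lists and the 6 marker lists were chosen with earlier results of these data known. All 8 genes are named, and of the pathway genes Lrpap1, Reln, Dab1, Nr1h2 and Nr1h3 together with at most 3 called genes per list and comparison, those with the largest absolute log2 fold change and a mean of at least 1 FPKM in a group. Some genes that this rule names are not reported here. Marker genes are named where they stand beside a result. For Apoe, Abca1 and Lpl, the 5 genes closest in pattern are named. GC content was that of the longest GENCODE transcript and was known for 14699 tested genes. The alternatives were other pseudocounts, filters, scalings and fits, loess corrections (span 0.3) for GC content and gene length, the replicate block, and each library left out. Tables and plots were made with Python 3.11.15, pandas 2.3.3, numpy 2.4.6 and matplotlib 3.10.9.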

Additional observations from a re-analysis of the deposited data

Results flagged for a closer look

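For the 8 genes, 26 named pathway genes and 3 ratios, 111 groups of 4 libraries were checked for a single library apart from the others by Dixon's test, which flags about 1 in 20 by chance. It was met for 2, both in Trauma replicate 1. Cdk5 lay at 34.5 FPKM in that library, against 35.7 to 35.8 in the other 3 Trauma libraries, and Nr1h3 at 0.242 FPKM, against 0.585 to 0.603. The gap was 0.907 of the group's whole range for Cdk5 and 0.948 for Nr1h3. No library of the 8 genes was found apart in this way.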

How the results depend on the processing

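In every alternative run, the directions of Apoe and Abca1 in all 3 comparisons were kept, and so were those of Clu against Control. Over all tested genes, the counts of calls moved by over 1.5 times as follows. For Trauma against Control (874 genes), 562 were called with no filter, 529 in a fit of the 2 groups and 1354 with the GC correction and the block. For Trauma+TGF-β1 against Trauma (1842), 990 were called with no filter, 806 with the GC correction, 701 with GC correction and block and 868 with length correction and block. For Trauma+TGF-β1 against Control (2449), 1629 were called with no filter and 1514 in a fit of 2 groups. Quantile scaling turned the share of higher calls from 37.8% to 54.8% for Trauma+TGF-β1 against Trauma and from 42% to 55.3% for Trauma+TGF-β1 against Control, and the GC correction turned it from 60.2% to 38.6% for Trauma against Control. Of the 8 genes, 4 were called for Trauma against Control with GC correction and block, in place of 2, and 1 for Trauma+TGF-β1 against Trauma with GC correction, or with length correction and block, in place of 3. Of the pathway genes, 7 were called in place of 12 for Trauma against Control with no filter, quantile scaling or 2 groups. In place of 9 for Trauma+TGF-β1 against Trauma, 5 were called with no filter, 15 with voom and 4 with length correction, also with the block. In place of 23 for Trauma+TGF-β1 against Control, 14 were called with no filter and 15 with 2 groups. The cause was not tested.

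With each library left out in turn, the calls over all tested genes ranged from 464 to 837 for Trauma against Control, from 642 to 2554 for Trauma+TGF-β1 against Trauma and from 1438 to 3422 for Trauma+TGF-β1 against Control, with the lowest counts without Trauma replicate 4, Trauma+TGF-β1 replicate 2 and Trauma+TGF-β1 replicate 2. The 8 genes gave 2 calls throughout, 1 to 4 and 3 to 4. The pathway genes gave 4 to 11, 1 to 12 and 14 to 29. Fewer libraries leave fewer degrees of freedom, and whether single libraries differ otherwise was not tested. Depth limits Abcg1 most among the 8 genes, at 355 to 512 reads.

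Among differences of the 8 genes that were not called, directions turned in some alternatives, with log2 values from -0.04 to 0.04 (Lrp1) and -0.06 to 0.09 (Lpl) for Trauma against Control, from -0.09 to 0.07 (Clu), -0.09 to 0.03 (Abcg1), -0.10 to 0.19 (Lrp1) and -0.0055 to 0.13 (Lrp8) for Trauma+TGF-β1 against Trauma, and from -0.02 to 0.09 (Abcg1), -0.06 to 0.14 (Lrp1) and -0.04 to 0.11 (Vldlr) for Trauma+TGF-β1 against Control. Of the named pathway genes, Dab1, Lrpap1 and Reln turned. Dab1 for Trauma against Control (-0.012) came to 0.011 with quantile scaling, and lay between -0.059 and 0.051 with libraries left out. Lrpap1 for Trauma against Control (0.032) came to -0.030 with the GC correction, block or not. Lrpap1 for Trauma+TGF-β1 against Trauma (-0.0050) came to 0.036 with quantile scaling, 0.023 with length correction and 0.070 with GC correction, block or not, and lay between -0.025 and 0.013 with libraries left out. Reln for Trauma+TGF-β1 against Trauma (0.022) came to -0.12 with length correction, block or not, and lay between -0.015 and 0.053 with libraries left out.

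Replicates with the same number deviated together little, with correlations between -0.00884 and 0.0762. Those with different numbers ran from -0.0912 to 0.0733. Correlations this small cannot decide whether the numbers pair the libraries. With the replicate number as a block, 781 genes were called for Trauma against Control, 1526 for Trauma+TGF-β1 against Trauma and 2222 for Trauma+TGF-β1 against Control, with the same 2, 3 and 3 counts among the 8 genes.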
